A study of Mus musculus with 4 samples.

Results

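The genes described here are 6 genes that mark a neuron as using glutamate or GABA (gamma-aminobutyric acid), the main excitatory and inhibitory transmitters of the forebrain. They are the vesicular glutamate transporters Slc17a7, Slc17a6 and Slc17a8, also known as VGLUT1, VGLUT2 and VGLUT3, the vesicular GABA transporter Slc32a1, also known as VGAT, and the glutamate decarboxylases Gad1 and Gad2. They were chosen by symbol, and all 6 were found among the 19465 genes of the deposited counts. The counts came from coronal brain sections that contain the striatum, from 2 wild-type mice and 2 mice heterozygous for Celsr3, a gene of an adhesion receptor of the cadherin family. The sections were fixed in formalin and embedded in paraffin, and the Visium CytAssist assay (version 2) captured gene probes on a grid of barcoded spots. No mouse had a treatment, and ages and sexes are not given in the sources used here. The series belongs to a study of tic-related behaviour and striatal dopamine under Celsr3 deficiency, per its title.

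A neuron fills its synaptic vesicles with glutamate through one of the Slc17a transporters, and with GABA through Slc32a1. Slc17a7 is known from cortical projection neurons, Slc17a6 from thalamic and other subcortical neurons, and Slc17a8 from scattered neurons that often release a second transmitter, among them the cholinergic interneurons of the striatum. Gad1 and Gad2 encode the enzymes that make GABA from glutamate: GAD67, found through the whole neuron, and GAD65, which sits mainly at axon terminals. The projection neurons of the striatum, most neurons of the septum and cortical interneurons use GABA.

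The promoters of the 3 GABA genes, whose levels moved together across the areas, are shown with that of Slc17a7, whose level went the other way. Each line gives the 150 bases before the start of the gene in RefSeq's annotation of GRCm38.p6, on the strand of the gene. Capitals mark TATAAA, the TATA box core, or GGGCGG, an Sp1 core, on either strand (TTTATA and CCGCCC on the other). These sequences stand at chr2:158610608-158610757 for Slc32a1, chr2:70561979-70562128 for Gad1, chr2:22622177-22622326 for Gad2 and chr7:45163771-45163920 for Slc17a7, all on the plus strand.
Slc32a1: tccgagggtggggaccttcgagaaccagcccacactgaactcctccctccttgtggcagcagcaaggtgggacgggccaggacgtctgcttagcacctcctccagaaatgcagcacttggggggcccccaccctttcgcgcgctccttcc
Gad1: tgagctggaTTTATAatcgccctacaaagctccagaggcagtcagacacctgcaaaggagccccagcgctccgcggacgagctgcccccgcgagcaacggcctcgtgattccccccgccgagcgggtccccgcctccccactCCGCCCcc
Gad2: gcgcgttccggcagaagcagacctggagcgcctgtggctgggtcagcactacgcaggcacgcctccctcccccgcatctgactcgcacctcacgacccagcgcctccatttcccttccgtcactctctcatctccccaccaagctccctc
Slc17a7: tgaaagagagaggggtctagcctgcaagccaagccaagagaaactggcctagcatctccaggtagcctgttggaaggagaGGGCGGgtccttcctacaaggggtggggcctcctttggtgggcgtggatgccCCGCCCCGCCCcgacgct

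In the 250 bases before the start, Slc17a7 held 3 matches to GGGCGG, of which the last overlap by 1 base, and Gad1 held 1, while Slc32a1 and Gad2 held 0. This core stands in 32.74% of all 32851 promoters of that length. Gad1 was the only one of the 4 with TATAAA, which stands in 12.37% of promoters. Its match is on the other strand, near the end of the printed bases farthest from the gene start. Whether it acts as a TATA box was not tested. TAATTA, a core bound by homeodomain proteins such as the DLX factors, was in 0 of the 4 and stands in 4.84% of promoters. None of these 3 short words stood in all 3 GABA gene windows.

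Spot names carry an ending from 1 to 4, which splits the 12602 spots into 4 barcode sets. The endings match no label of a mouse, so no set was assigned to a genotype, wild type was not compared with heterozygous, and values are given for each set with 95% intervals that cover counting error only. After removal of 1 spot under 500 counts, the sets held 2808 to 3444 spots and 90752475 to 174761560 counts, with a median of 26444.5 to 52481 counts per spot. Spots were grouped into 28 clusters without the 6 genes and joined into areas by marker lists. The cortical-marker area held 761 to 973 spots per set, the striatal-marker area 496 to 866 and the hypothalamic-marker area 211 to 294. The thalamic-marker area was present with 148 spots in set 1 and 299 in set 4, with 0 in set 2 and 3 in set 3, and the septal-marker area was absent from set 4. In the striatal-, cortical- and hypothalamic-marker areas different clusters held most spots in different sets. Clusters 3, 7 and 0 were the main striatal clusters of sets 1 and 4, of set 2 and of set 3. Cluster 14 was the main hypothalamic cluster of set 1, cluster 24 that of set 2 and cluster 16 that of sets 3 and 4. The cortical area called Fezf2-led joins clusters 2, 18 and 20, which have Fezf2 among their leading genes but not as the first. Its main cluster was 20 in set 1, 2 in sets 2 and 3, and 18 in set 4. The layer 2/3 area joins cluster 8, its main cluster in sets 1 to 3, and cluster 22, found in set 4 alone with 214 spots. The leading genes of clusters 18 and 22 also include Arc, Nr4a1, Junb and Fos. Clusters with no clear marker list are called by their first 2 leading genes. A spot can hold several cells, and fewer cells of a type and less RNA per cell cannot be told apart.

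Slc17a7 was the transporter of the cortical-marker area. Its level was 2962, 2599, 2512 and 2606 CPM (a gene's counts per 1000000 counts of the area) in sets 1 to 4. In the striatal-marker area it was 60.2, 40.3, 57.9 and 72.4 CPM. No cortical value came near a striatal one. The cortical level was 4.54 to 8.47 times that of all other spots of the same set. Slc17a7 was therefore at least 2-fold higher in 4 of 4 sets, as were 2.06% of the 13773 genes compared, and it was the only one of the 6 genes in that direction. Between 66.7% and 79.1% of all Slc17a7 counts lay in the cortical-marker area, which held 29.5% to 38.4% of all counts.

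Slc17a7 was not even across the cortex. The cortical layer 6 and 6b area, led by Cplx3 and Ccn2, had 3602, 3149, 3108 and 3215 CPM. The layer 4 area, with Kcnab3 and Rorb among its leading genes, had 2344, 2231, 2079 and 2038 CPM. The deep level was above the layer 4 level in each set, and the 4 values of one did not overlap with those of the other. The share of all genes that separate these 2 areas in this way was not computed. Outside the cortical lists, Slc17a7 reached 3020 to 3672 CPM in the area led by Tafa2 and Igfn1, and 2852 to 3360 CPM in the claustrum-marker area. Those ranges overlap with that of layer 6 and 6b, so the order of these 3 areas is not settled. The hypothalamic-marker area, at 7.03 to 17.4 CPM, had the lowest level in sets 2, 3 and 4, and the Etnppl and Lhx8 area, at 15.8 CPM, had it in set 1. The meninges-marker area, which covers the brain surface, still had 1552 to 1773 CPM.

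Slc17a6 was highest in the thalamic-marker area. It stood at 630 CPM (95% interval 617 to 644) in the thalamic-marker area of set 1 and at 482 CPM (469 to 495) in that of set 4. These values were 13.7 and 12.6 times those of all other spots. Slc17a6 was the only one of the 6 genes at least 2-fold higher in the thalamic-marker area in both sets that hold it, beside 2.99% of all genes compared. The area held 7.39% and 11.9% of the counts of these sets and 52.1% and 63.0% of their Slc17a6 counts. The area led by Ctxn3 and Lbhd2, present in set 3, followed with 243 CPM, 7.92 times other spots, beside 4.0% of genes past 2-fold.

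Lower Slc17a6 levels were found across the ventral forebrain. The cholinergic basal forebrain-marker area had 201, 49.6, 126 and 122 CPM in sets 1 to 4, and the hypothalamic-marker area had 171, 71.6, 85.6 and 99.9 CPM. These 2 areas overlap in their values. In both, set 1 was highest and set 2 lowest. In the striatal-marker area Slc17a6 was nearly absent, at 0.8286 to 1.56 CPM, the lowest level of any area in each set. Slc17a6 was at least 2-fold lower there in 4 of 4 sets, as was Slc17a7, beside 7.18% of all genes.

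Within the cortex Slc17a6 ran against Slc17a7. The layer 4 area had 36.4, 23.8, 41.8 and 31.7 CPM of Slc17a6. The layer 6 and 6b area had 3.75, 2.54, 6.05 and 3.18 CPM. Every layer 4 value was above every layer 6 and 6b value, whereas Slc17a7 was higher in layer 6 and 6b. Here too the share of all genes with such a separation was not computed. Over single cortical spots the Spearman correlation of the Slc17a6 and Slc17a7 levels was -0.46, -0.17, -0.34 and -0.28 in sets 1 to 4. These rest on 761 spots in set 1, the fewest, to 973 in set 3, the most. Spots of a set share a section, and CPM values share a total.

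The share of Slc17a6 in the sum of Slc17a6 and Slc17a7 counts gives this balance for each area. The probes may differ in strength, so a share is read between areas and not as a ratio of molecules. It was 0.37% to 0.88% in the cortical-marker area, with 1.06% to 1.97% in layer 4 and 0.080% to 0.19% in layer 6 and 6b. It was 59.4% to 86.4% in the thalamic-marker area, 76.7% to 85.8% in the cholinergic basal forebrain-marker area and 84.0% to 91.1% in the hypothalamic-marker area. The cortical areas did not overlap with these 3, while the 3 overlapped with each other. The striatal-marker area, low in both genes, had 1.36% to 3.10%. The plot of Slc17a6 against Slc17a7 shows the cortical areas and the thalamic area apart from each other.

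**Figure D1:**
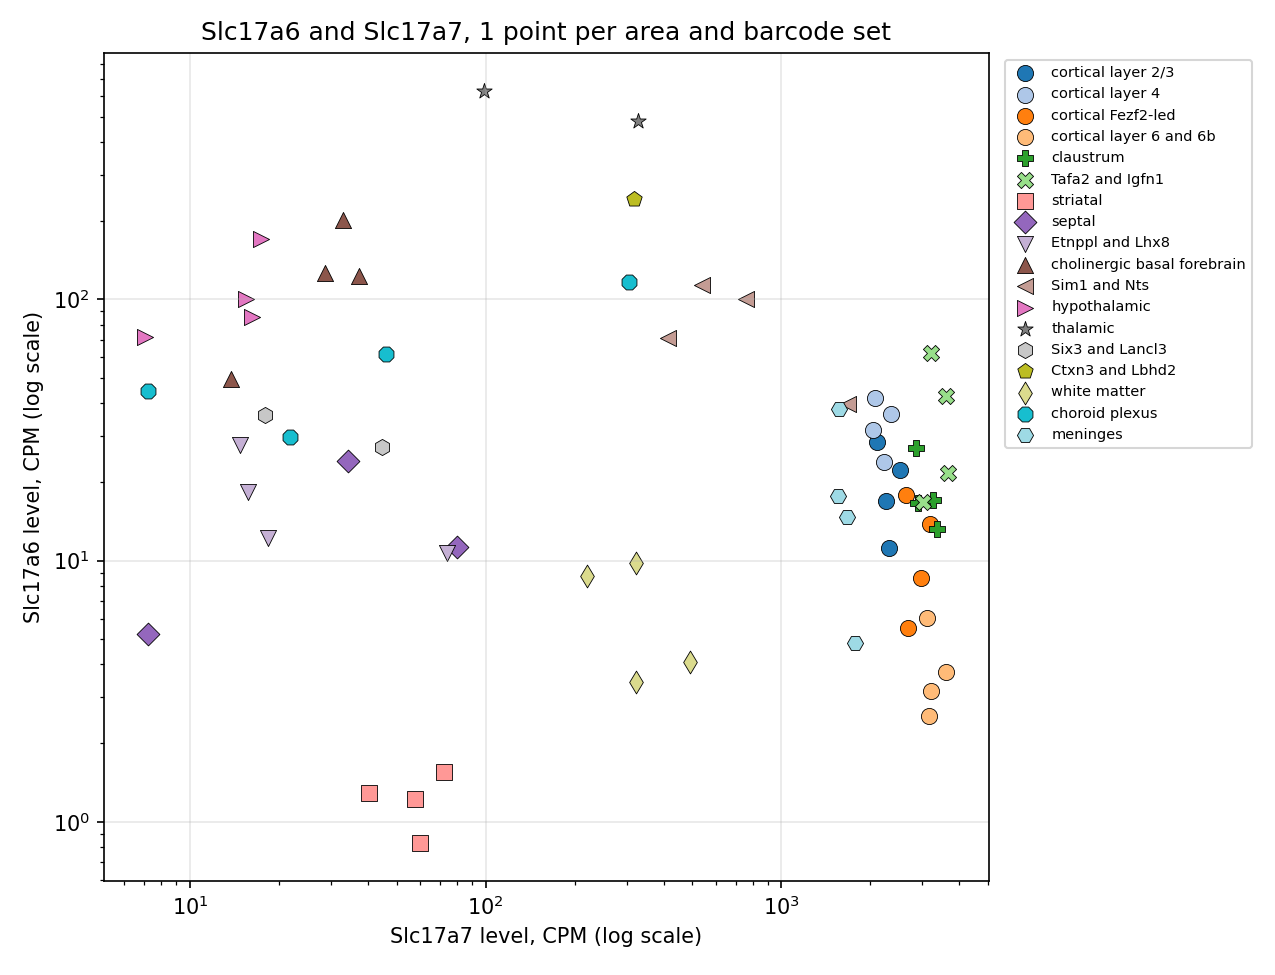
Level of Slc17a6 (vertical, CPM, log scale) against that of Slc17a7 (horizontal, CPM, log scale), 1 point for each area in each barcode set of at least 20 spots. Cortical areas lie at the right, between 2038 and 3602 CPM of Slc17a7, the thalamic area at the top, at 482 and 630 CPM of Slc17a6, and the striatal area at the bottom, between 0.8286 and 1.56 CPM of Slc17a6.

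Slc17a8 was the rarest of the 3 in counts, with 561 to 925 counts per set. Its level was 10.7, 17.5, 11.6 and 13.4 CPM in the striatal-marker area of sets 1 to 4, above that of every other area of at least 20 spots of the same set. The striatal level was 2.70, 3.63, 2.996 and 2.66 times that of other spots (lowest interval bound 2.20, highest 4.15). Slc17a8 was at least 2-fold higher there in 4 of 4 sets, beside 3.06% of all genes, and the other 5 genes were not. The call depends on how areas are drawn. With each spot given to the marker list of its highest score, Slc17a8 was 2-fold higher in 1 of 4 sets, and the log2 ratio was 0.27, 0.77, 0.76 and 1.03. Of the striatal-cluster spots, 40, 63, 61 and 14 went to the cholinergic basal forebrain list under that rule, and these 2.82% to 7.72% of spots held 22.6% to 43.7% of the area's Slc17a8 counts.

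Within the striatal-marker area, Slc17a8 was higher in spots with counts of cholinergic genes. Striatal spots were split, after the values were seen, by their summed counts of Chat, Slc18a3 and Slc5a7, which make, load and recover acetylcholine. Spots with 0 such counts had 1.41, 4.58, 2.61 and 5.32 CPM of Slc17a8. Spots with 1 to 2 had 5.19, 13.2, 6.49 and 15.01 CPM. Spots with 3 or more had 38.8, 55.9, 35.7 and 92.0 CPM. In each set the level was higher in each class than in the class below, and the class of 3 or more overlapped with neither of the others. The highest class held 147, 150, 189 and 30 spots, and its median depth was above that of the class with 0 in each set, by the widest margin in set 3, at 45426 against 40120 counts per spot. The part of depth in the result was not tested.

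The ratio of the class of 3 or more to that of 0 was 27.5 (18.1 to 43.6), 12.2 (9.28 to 16.3), 13.7 (9.88 to 19.4) and 17.3 (11.8 to 25.6). Slc17a8 was the only one of the 6 genes at least 2-fold higher in 4 of 4 sets, beside 0.298% of all genes. Ranked by the lowest ratio over the sets, it was rank 1 of 13770 genes once the 3 genes of the split were left out. Other genes with high ratios, named after their values were seen, were Crabp2, a retinoic acid binding protein, at 8.03, and Ecel1, an endopeptidase-like protein, at 7.89. Lhx8, a homeobox gene needed for forebrain cholinergic neurons, was rank 10 at 4.38. The GABA genes did not follow. Gad1 had ratios of 0.999, 0.983, 0.957 and 0.801, Gad2 of 0.901, 0.943, 0.982 and 0.955, and Slc32a1 of 0.9501, 0.922, 0.978 and 1.07. Slc17a7 was lower in the spots with 3 or more, at 0.684, 0.556, 0.589 and 0.225.

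The cholinergic basal forebrain-marker area, which is named from cholinergic markers, did not show the same step in each set. Its Slc17a8 level was 4.38, 9.61, 4.95 and 8.13 CPM. The ratio between spots with 3 or more and with 0 cholinergic counts in sets 2, 3 and 4 was 0.934 (0.576 to 1.53), 1.85 (0.846 to 4.48) and 2.27 (1.18 to 4.38). In set 1 it was 35.8 with an interval from 6.01 to 1455, since the lower class held 1 count. In sets 2, 3 and 4 the intervals did not overlap with those of the striatal-marker area of the same set.

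**Figure D2:**
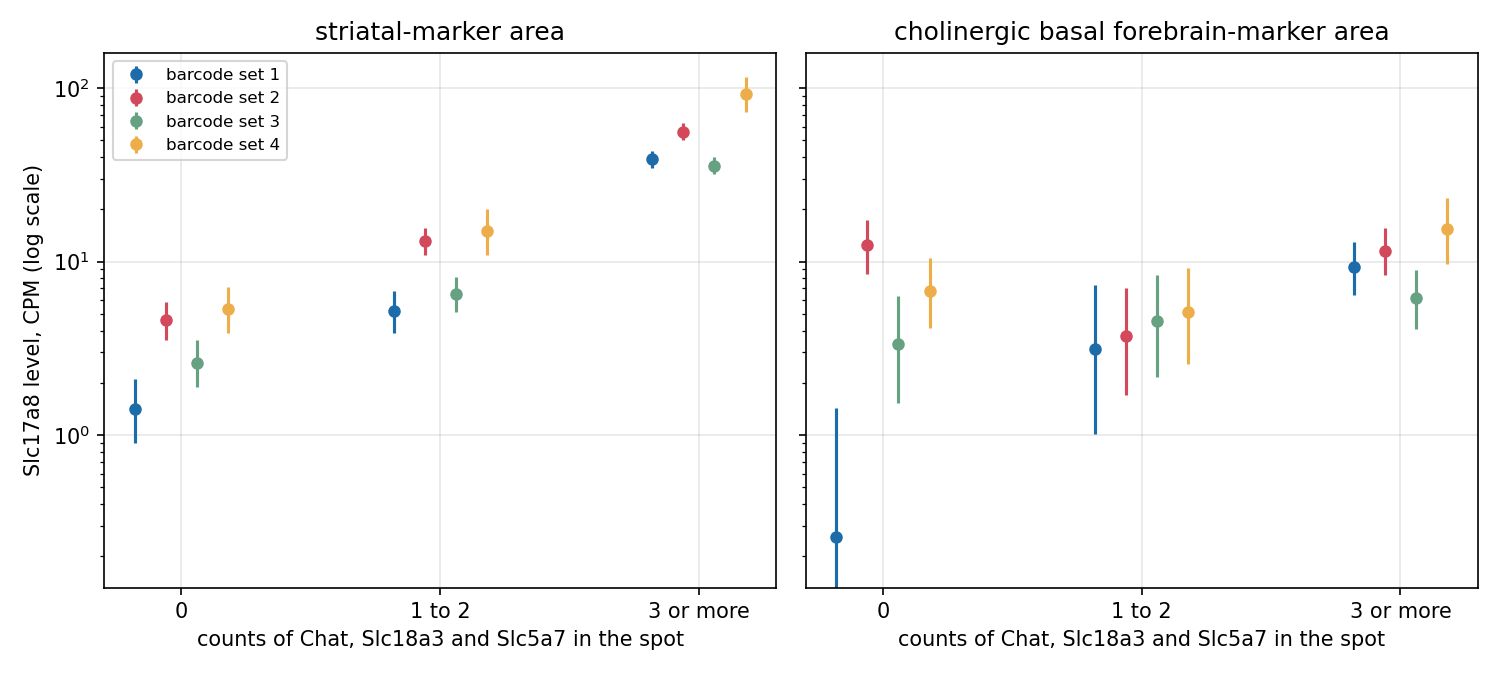
Slc17a8 level (vertical, CPM, log scale) in spots with 0, 1 to 2 and 3 or more summed counts of Chat, Slc18a3 and Slc5a7 (horizontal), in the striatal-marker area (left) and the cholinergic basal forebrain-marker area (right). Points are barcode sets and bars are exact 95% Poisson intervals; striatal levels rise from 1.41 to 5.32 CPM on the left to 35.7 to 92.0 CPM on the right in all 4 sets.

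Among the striatal clusters, cluster 0 had the highest Slc17a8 level in every set, at 20.1, 30.3, 13.7 and 41.3 CPM, and it also had the highest Chat level, at 22.6, 29.6, 15.8 and 43.7 CPM. Cluster 7, the main striatal cluster of set 2, had 19.3 CPM of Slc17a8 and 19.5 CPM of Chat. Cluster 3, the main striatal cluster of sets 1 and 4, had 8.22 and 11.3 CPM of Slc17a8 there, and cluster 11 had 5.59 to 11.6 CPM. Against all other spots, clusters 0 and 7 passed 2-fold in every set that holds them with at least 20 spots, and clusters 3, 11 and 26 in 0 sets. How many of all genes pass 2-fold in a single cluster was not computed. Cluster 26, led by histone genes and Crym, had 2.29 to 3.73 CPM of Slc17a8 and 1.97 to 3.57 CPM of Chat. Over single striatal spots, the Spearman correlation of Slc17a8 with Chat was 0.52, 0.45, 0.42 and 0.32, against -0.033 to -0.0056 over cortical spots. In the cholinergic basal forebrain-marker area it was 0.30, 0.15, 0.21 and 0.22, positive in each set. Slc17a8 was otherwise seen at 7.59 and 9.55 CPM in the thalamic-marker area and at 6.23 to 7.96 CPM in the Fezf2-led cortical area, above the other cortical layers in each set. The area led by Six3 and Lancl3 held 0 Slc17a8 counts of 4547242 in set 1, which allows up to 3 counts, and 1 count in set 4.

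In sets 1 and 4 the 3 GABA genes were all highest in the area led by Six3 and Lancl3, which was present in those sets. Gad2 stood there at 2323 and 1401 CPM, Gad1 at 534 and 508 CPM, and Slc32a1 at 229 and 180 CPM. The ratio to other spots was 4.95 and 4.51 for Gad2, 5.51 and 5.84 for Gad1, and for Slc32a1 3.59 in set 1, with set 4 lower. All 3 were thus at least 2-fold higher in both sets, beside 1.81% of all genes, while the 3 glutamate transporters were at least 2-fold lower, beside 8.79%. The leading genes of this area include Six3, Isl1 and Esrrg, and it matched no marker list.

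High levels were also found in the septal-marker area and the area led by Etnppl and Lhx8. Gad1 was 148, 235 and 331 CPM in the septal-marker area of sets 1 to 3 and 253, 202, 231 and 187 CPM in the Etnppl and Lhx8 area of sets 1 to 4. Slc32a1 was 73.0, 190 and 191 CPM in the former and 159, 144, 131 and 129 CPM in the latter. The septal-marker area of set 1 rests on 25 spots and was low for both genes. The Etnppl and Lhx8 area of set 2 rests on 21 spots. The striatal-marker area had 153, 166, 210 and 145 CPM of Gad1, 758, 548, 640 and 554 CPM of Gad2 and 113, 121, 106 and 114 CPM of Slc32a1. Slc32a1 was the steadiest of these, with a highest set 1.14 times the lowest, where the median gene had 1.39. The striatal level of Gad1 was 1.56 to 1.71 times that of other spots and that of Gad2 1.45 to 1.78 times, and neither reached 2-fold in any set. That of Slc32a1 was 1.73 to 2.04 times and passed 2-fold in 1 of 4 sets, set 4.

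Gad2 stood out in the hypothalamic-marker area, at 1044, 983, 1109 and 620 CPM, which was 2.22, 2.61, 2.64 and 1.98 times other spots and so passed 2-fold in 3 of 4 sets. Gad1 was 119, 134, 169 and 112 CPM there, 1.11 to 1.21 times other spots, and passed in 0 of 4. Thus 0 of the 6 genes passed in all 4 sets there, beside 2.92% of all genes. By cluster, Gad2 was 2.43 to 3.49 times other spots in cluster 16, past 2-fold in 4 of 4 sets, and 2.49 times in cluster 24, which had at least 20 spots in set 2 alone. In cluster 14, the main hypothalamic cluster of set 1, it was 1.32 to 1.78 times and passed in 0 of 3 sets. The share of all genes past 2-fold was not computed for single clusters. The 2 decarboxylases thus differed in their hypothalamic ratios in each set.

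The cortical-marker area was low in all 3. Gad2 was 206, 142, 183 and 130 CPM there, and Slc32a1 was 34.5, 31.3, 33.2 and 31.5 CPM. Both were at least 2-fold lower than in other spots in 4 of 4 sets, as was Slc17a6, beside 6.2% of all genes. Gad1 was 73.1, 60.1, 91.7 and 66.6 CPM, with ratios of 0.395 to 0.590, and passed 2-fold in 1 of 4 sets. In sets 1 and 4 the thalamic-marker area had the lowest levels of all areas for the 3 genes. Gad1 was 6.12 (4.85 to 7.63) and 11.5 (9.57 to 13.7) CPM, Slc32a1 was 5.11 and 5.57 CPM, and Gad2 was 77.6 and 63.4 CPM. All 3 were at least 2-fold lower there in both sets, as was Slc17a7, beside 7.33% of all genes. The plot of levels by area shows the 3 GABA genes side by side with the transporters of glutamate.

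**Figure D3:**
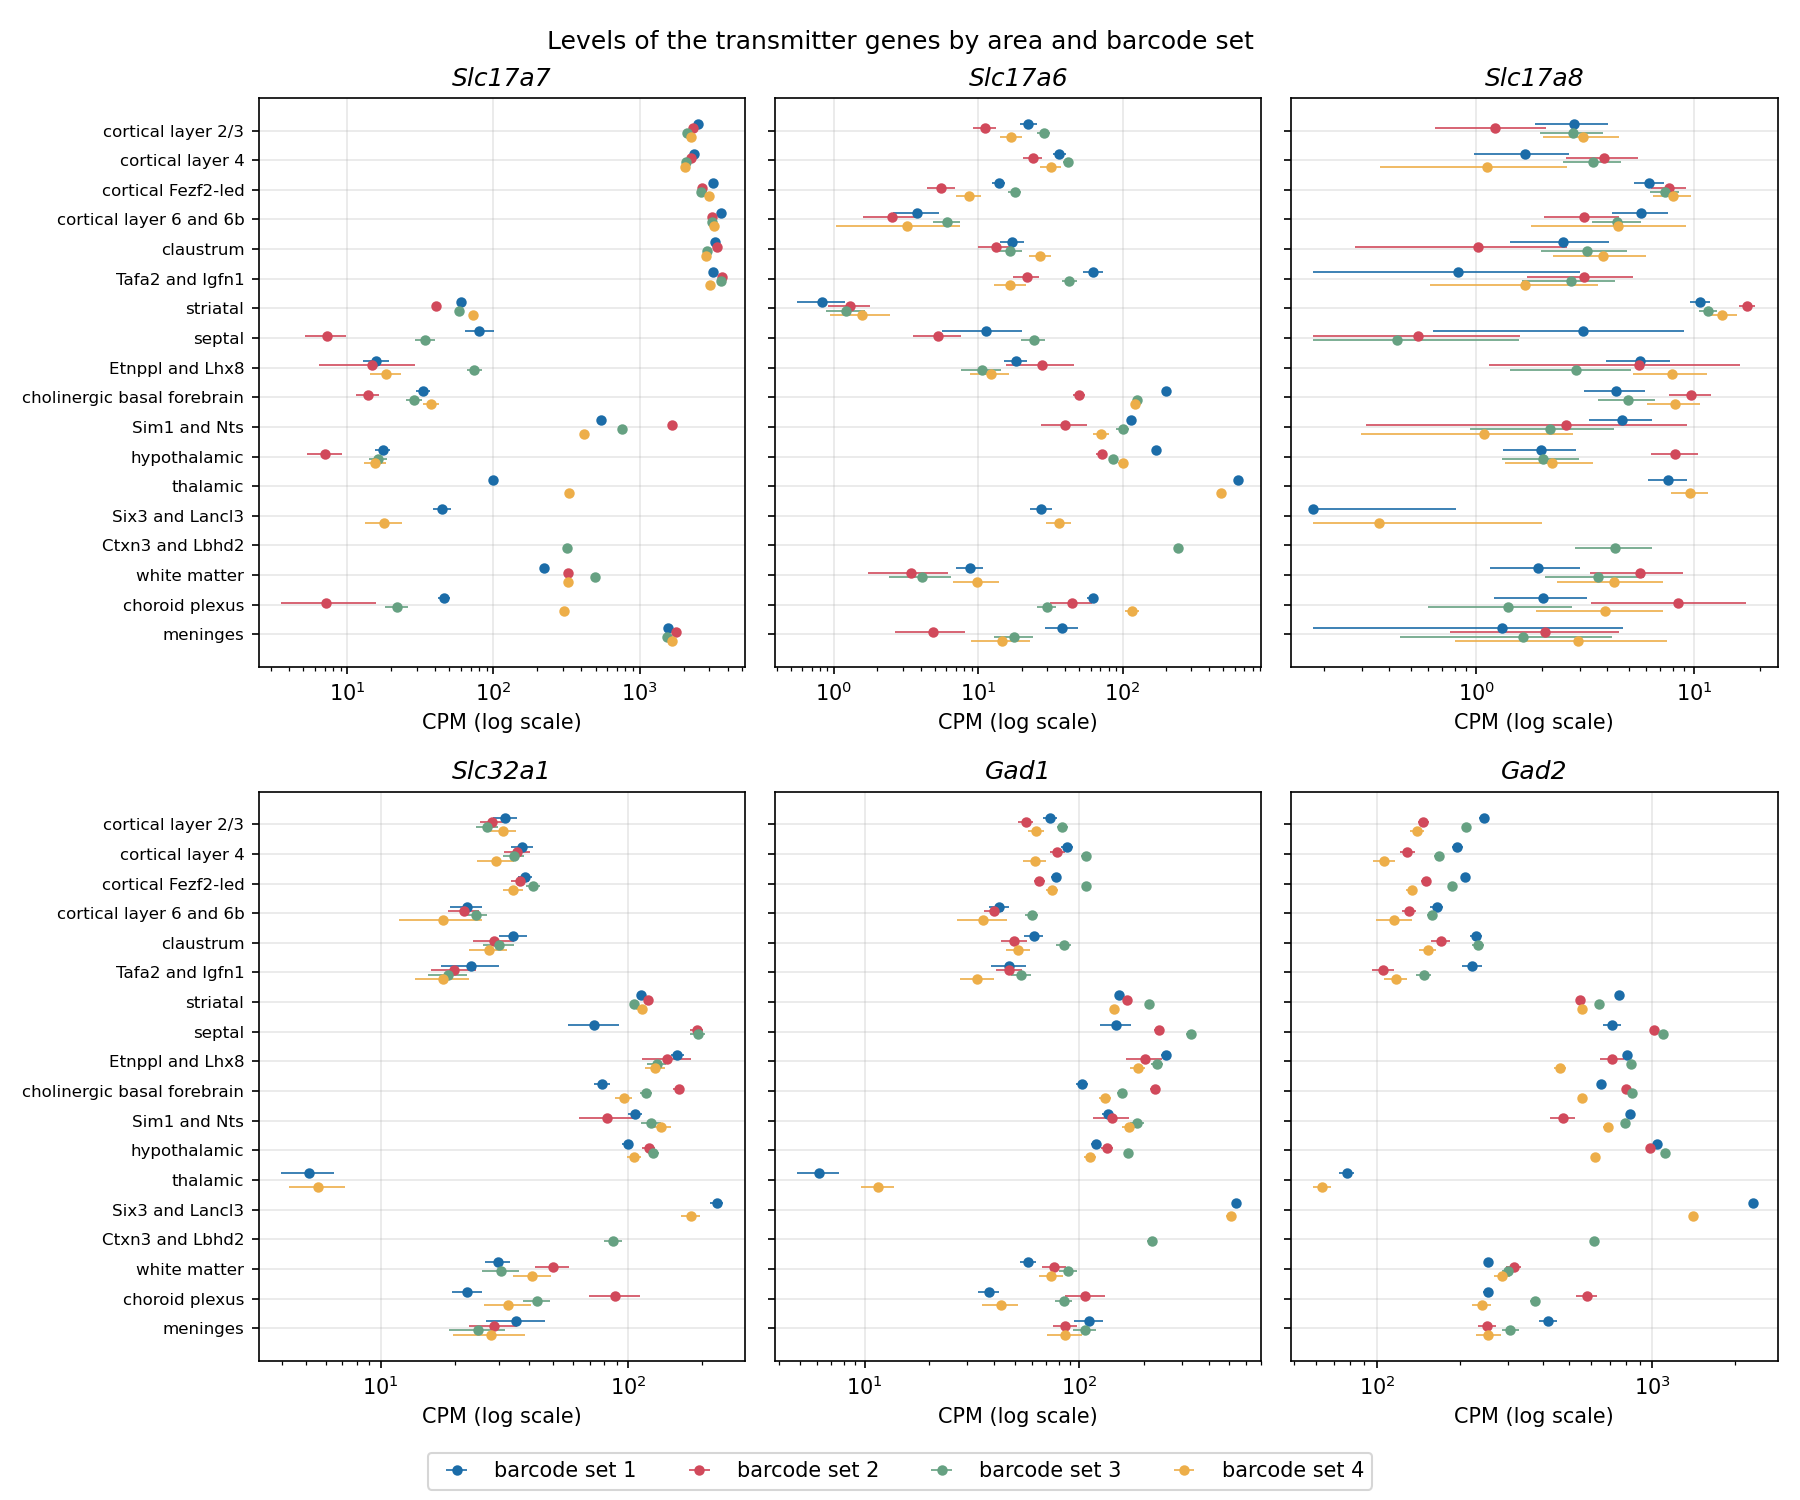
Levels of the 6 genes (horizontal, CPM, log scale) by area (vertical), with the cortical-marker area split by layer. Points are barcode sets and bars exact 95% Poisson intervals, and a level of 0 is drawn at the left edge; the GABA genes share a low in the thalamic area and a high in the Six3 and Lancl3 area, while Slc17a7 is above 2000 CPM in each cortical area and Slc17a6 is highest in the thalamic area.

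In the other areas, Slc17a7 was at least 2-fold higher in every set in the Tafa2 and Igfn1 area (0.748% of all genes), the claustrum-marker area (0.733%), the Fezf2-led cortical area (0.617%) and the layer 6 and 6b area (0.944%). In the layer 4 area it passed in 1 of 4 sets and in the layer 2/3 area in 2 of 4, so 0 of the 6 genes were called higher there (1.42% and 1.2% of all genes). It was at least 2-fold lower in every set in the hypothalamic-marker area (4.28%), the cholinergic basal forebrain-marker area (3.96%), the septal-marker area (3.98%), the Etnppl and Lhx8 area (4.23%), the choroid plexus-marker area (3.72%), and, in 1 set, the Ctxn3 and Lbhd2 area (9.63%). These were the only calls among the 6 genes in that direction in those 6 areas. Slc17a6 and Slc17a7 were lower in the white matter-marker area (4.42%, with 0 of the 6 higher beside 5.21%), and Slc17a6 and Slc17a8 in the meninges-marker area (2.13%).

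All 3 GABA genes and Slc17a8 were at least 2-fold lower in the Tafa2 and Igfn1 area (5.36%), and all 3 GABA genes and Slc17a6 in the layer 6 and 6b area (4.53%). Slc32a1 and Gad2, but not Gad1, passed in the claustrum-marker area (3.37%) and the layer 2/3 area (6.04%). Slc17a6 and Gad2 passed in the Fezf2-led area (5.72%), and Gad2 alone in the layer 4 area (6.19%). Across the 4 cortical layer areas, Gad2 was thus lower in each, and Gad1 in 1. In the Sim1 and Nts area 0 of the 6 genes passed in either direction, beside 0.167% of genes higher and 1.43% lower.

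The balance of Gad1 and Gad2 differed between areas. The Gad1 share of Gad1 and Gad2 counts was 26.2% (25.5 to 26.9), 29.7% (28.7 to 30.7), 33.5% (32.8 to 34.2) and 33.9% (32.6 to 35.1) in the cortical-marker area. It was 16.8% (16.4 to 17.2), 23.3% (22.7 to 23.9), 24.7% (24.3 to 25.2) and 20.7% (19.9 to 21.6) in the striatal-marker area. It was 10.3% (9.80 to 10.7), 12.02% (11.4 to 12.7), 13.2% (12.7 to 13.7) and 15.3% (14.5 to 16.2) in the hypothalamic-marker area. The order was cortical over striatal over hypothalamic in 4 of 4 sets, with no overlap of the intervals within a set. With the areas as drawn here, the ranges over the sets did not overlap either. With clustering not centred within each set, the cortical share of set 1 was 24.6%, below the striatal 25.05% of set 2. With areas drawn by marker score, the cortical share of set 1 was 22.97%, below the striatal 25.4% of set 3. The order within each set held in both. The thalamic-marker area, with few counts of either gene, had 7.31% and 15.4%. Set 1 had the lowest share of the sets holding the area in each of these 4 areas (2 sets for the thalamic-marker area), so shares are best read within a set.

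The share also differed among the cortical areas. It was 30.9%, 37.9%, 38.9% and 36.8% in the layer 4 area and 20.4%, 23.3%, 27.4% and 23.5% in the layer 6 and 6b area. Layer 4 was above layer 6 and 6b in each set, with no overlap of their intervals. Layer 2/3 lay between them in each set, at 22.9% to 30.9%. Its set 4 value rests mainly on cluster 22. Gad1 itself was 61.8 to 107 CPM in layer 4 and 35.6 to 59.9 CPM in layer 6 and 6b. The interval for layer 6 and 6b in set 4 rests on 56 Gad1 counts.

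**Figure D4:**
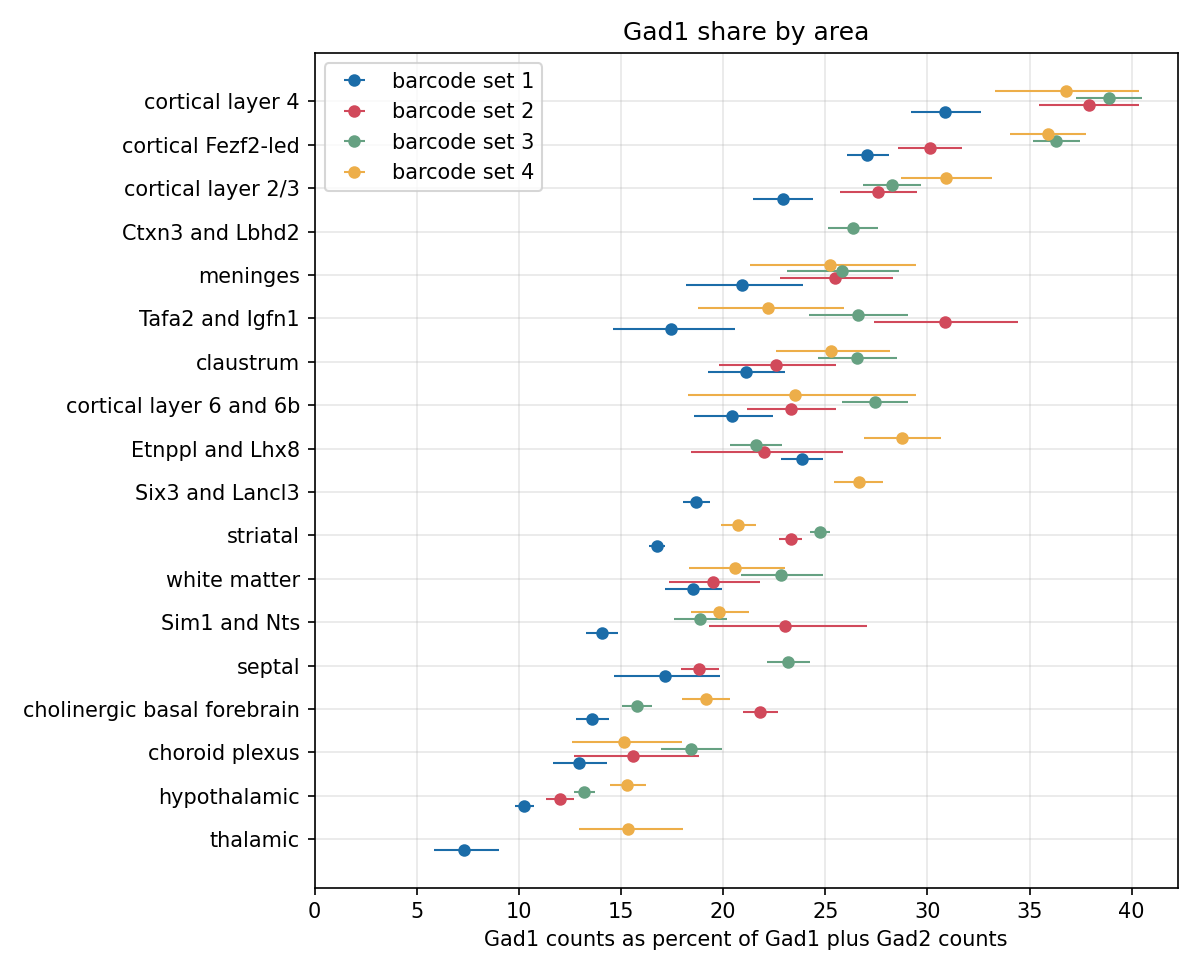
Gad1 counts as a percentage of Gad1 plus Gad2 counts (horizontal) by area (vertical, ordered by the median over sets). Points are barcode sets and bars exact 95% Clopper-Pearson intervals; the layer 4 area lies between 30.9% and 38.9% and the hypothalamic area between 10.3% and 15.3%.

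Interneuron markers split the cortical spots in different ways for the GABA genes. Within each set, cortical spots in the top 25% by CPM of Pvalb, which marks fast-spiking interneurons, were compared with the bottom 25%, a comparison chosen after the values were seen. Gad1 was 109, 95.6, 139 and 102 CPM in the top spots and 45.4, 37.7, 54.7 and 44.7 CPM in the bottom spots. The ratios were 2.40 (2.17 to 2.65), 2.54 (2.25 to 2.86), 2.54 (2.33 to 2.76) and 2.28 (1.98 to 2.64). Slc32a1 had ratios of 2.55, 2.38, 2.49 and 2.01. Gad2 had ratios of 1.29, 1.31, 1.197 and 1.12. In each set the intervals of Gad1 and Gad2 did not overlap. Gad1, Slc32a1 and Slc17a6 were at least 1.5-fold higher in 4 of 4 sets, beside 1.74% of all genes. The top spots were deeper in each set, for example 72130 against 59690 median counts in set 1, and the part of depth in these ratios was not tested.

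Within the layer 4 area alone, the Pvalb ratio of Gad1 was 2.12 to 2.96 and that of Gad2 was 0.894 to 1.23. The ratio of Slc17a6, which was 1.56 to 2.71 over the whole cortical-marker area, was 0.739 to 1.32 there. Over the whole cortical-marker area, a split by Sst, the marker of another interneuron class, gave the other order in all 4 sets. Gad2 had ratios of 1.39, 1.503, 1.57 and 1.51, and Gad1 of 1.26, 1.02, 1.32 and 1.45. The Gad1 and Gad2 intervals overlapped in sets 1 and 4 and not in sets 2 and 3. Slc32a1 had ratios of 1.64, 1.486, 1.57 and 1.575 by Sst, short of 1.5 in set 2 alone. None of the 6 genes was 1.5-fold higher in 4 of 4 sets by Sst, beside 0.414% of all genes. By Vip, which marks a further class, Gad1 was at 0.938 to 1.15 and Gad2 at 1.02 to 1.199, and again none of the 6 genes passed, beside 1.32% of all genes.

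**Figure D5:**
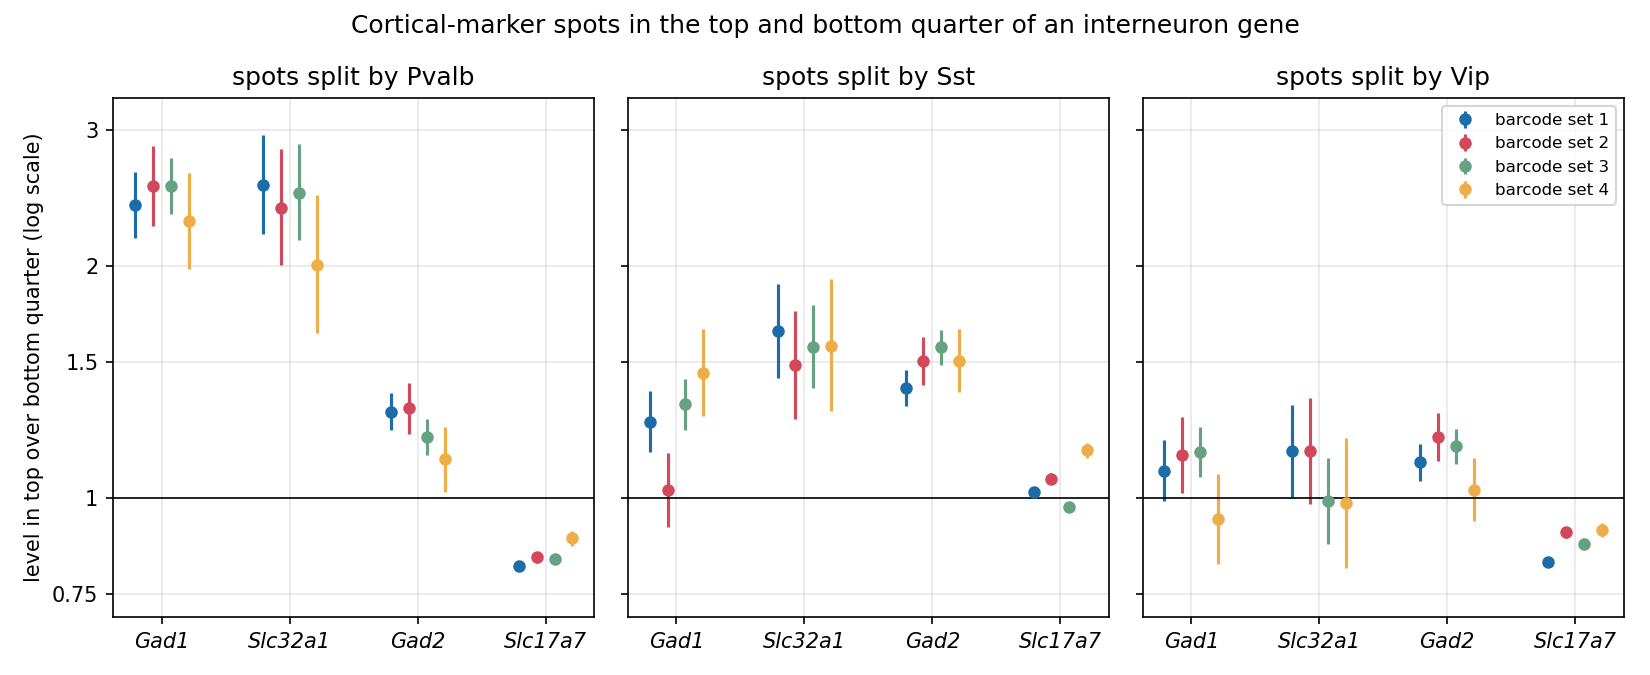
Ratio of the level in the top to that in the bottom 25% of cortical-marker spots (vertical, log scale) for Gad1, Slc32a1, Gad2 and Slc17a7 (horizontal), with spots ranked by Pvalb (left), Sst (middle) or Vip (right). Points are barcode sets and bars exact 95% intervals; by Pvalb, Gad1 lies between 2.28 and 2.54 and Gad2 between 1.12 and 1.31, and by Sst, Gad2 lies between 1.39 and 1.57.

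Areas differed in how closely the decarboxylases went together. The Spearman correlation of Gad1 with Gad2 over single spots was 0.80, 0.30, 0.60 and 0.47 in the hypothalamic-marker area and 0.41, 0.32, 0.37 and 0.27 in the cortical-marker area. It was 0.11, -0.018, -0.0070 and 0.19 in the striatal-marker area, where Gad1 was 145 to 210 CPM. Spots of a set share a section, a hypothalamic area can hold several nuclei, and these values are descriptions.

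Between the barcode sets, 5 of the 6 genes differed by less than 2-fold over whole sections. Slc17a7 was 1157, 1350, 1301 and 1152 CPM, Slc32a1 was 67.9, 80.8, 71.3 and 63.7 CPM, and Gad1 was 108, 117 and 142 CPM in sets 1 to 3, set 4 being lowest. Gad2 was 518, 421, 474 and 344 CPM, and Slc17a8 was 5.29, 8.13, 5.56 and 6.18 CPM. Their highest set was 1.17 to 1.54 times their lowest. With 1 CPM added to each level, as in the calls between sets, it was 1.17 to 1.502 times. On that measure the median gene of at least 10 CPM had 1.41. Slc17a6 was 89.3, 15.8, 38.3 and 90.9 CPM, so that set 4 was 5.75 times set 2. It was the only one of the 6 genes past 2-fold, beside 11.1% of the 10144 genes of at least 10 CPM, among which Slc17a8 was not counted. The sets with high Slc17a6 were those with a thalamic-marker area. Outside that area, Slc17a6 was 46.1, 15.8, 38.3 and 38.2 CPM, a range of 2.92-fold in which set 2 remained lowest.

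Set 2 was also lowest for Slc17a6 in the cortical-marker area, at 9.62 CPM against 18.1, 22.4 and 14.8 CPM in sets 1, 3 and 4. The highest set was 2.33 times the lowest, and again Slc17a6 was the only one of the 6 genes past 2-fold, beside 10.1% of genes. Slc17a8, under 10 CPM there, was not counted among those genes. In the striatal-marker area 0 of the 6 genes were past 2-fold, beside 9.85% of genes. Slc17a6, under 10 CPM there, was not counted among those genes, and its highest set was 1.88 times its lowest. Mouse, genotype and the level of the brain at which a section was cut cannot be told apart in these differences.

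The genes with the most similar pattern were found by the Pearson correlation of log2(CPM + 1), centred within each set, over 64 sums of an area in a set, among 10144 genes. The sums share sections and depth, and the coefficients are descriptions. For Slc17a7 the nearest were Neurod2 at 0.96, Neurod6 at 0.93, Rtn4rl2 at 0.92, Gm11549 at 0.92 and Fhl2 at 0.91, of which the first 2 are transcription factors of cortical projection neurons. For Slc17a6 they were Cd83, Pck2, Pnma3, Slc1a6 and Rac3, at 0.83 to 0.81. For Slc17a8 no gene came closer than Samd5 at 0.63, followed by Pcp4, Dcc, Cript and Tuba1b at 0.61 to 0.56.

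The 3 GABA genes were among the nearest 3 genes of one another. Slc32a1 correlated with Gad2 at 0.95 and with Gad1 at 0.94, and Gad1 with Gad2 at 0.89. Dlx5 and Dlx6, homeobox genes of forebrain GABA neurons, were among the nearest 5 of all 3 genes, at 0.79 to 0.90. The remaining neighbours were BC030500 for Slc32a1, Trim62 for Gad1, and Isl1, a LIM-homeobox gene, for Gad2. Slc17a7 ran against the GABA genes, at -0.78 with Gad2, -0.70 with Slc32a1 and -0.54 with Gad1, whereas Slc17a6 was between -0.12 and 0.088 with them.

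A list of 23 other genes, of which 22 were measured, was read in the same areas and is called the cycle list. It held genes of the glutamate and GABA cycle and transporters for other transmitters, among them Slc18a3 and Slc18a2. Abat, the enzyme that breaks down GABA, was 0.407 to 0.457 times other spots in the cortical-marker area and 2.01 to 2.28 times in the Etnppl and Lhx8 area. Slc6a11, the GABA transporter GAT3 of astrocytes, was 0.263 to 0.403 times other spots in the cortical-marker area and 0.189 to 0.269 times in the striatal-marker area. It was 2.34 to 4.60 times other spots in the hypothalamic-marker area, 2.34 and 2.65 times in the thalamic-marker area, and 3.27 to 5.46 times in the Etnppl and Lhx8 area. Slc6a11 was thus high in the thalamic-marker area, where Gad1, Gad2 and Slc32a1 were lowest, and low in the striatal-marker area, where they were above the cortex.

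In the cortical-marker area 0 of the 22 genes were at least 2-fold higher and 5 were lower in all 4 sets, beside 2.06% and 6.2% of all genes: Abat, Slc6a11, Slc6a13 and the transporters of acetylcholine, Slc18a3, and of monoamines, Slc18a2. In the striatal-marker area 0 were higher and 2 were lower, Slc6a11 and Slc18a2, beside 3.06% and 7.18% of all genes. In the meninges-marker area 4 were higher, beside 4.92% of all genes. Among them Slc6a13, the GABA transporter GAT2 of the meninges, was 19.1 to 38.2 times other spots. The glutamate transporters of astrocytes, Slc1a2 and Slc1a3, were 2.29 to 2.80 and 2.75 to 2.97 times, and the glutamine transporter Slc38a5 was 2.85 to 6.49 times. In the white matter-marker area Got1, an aspartate aminotransferase, was 0.318 to 0.430 times other spots. The choroid plexus-marker area had 2.76 to 4.34 times the Slc38a3 of other spots.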

How the data were processed

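The authors deposited 1 table of raw counts, genes by spots. Space Ranger and Seurat are named in the submitters' processing notes, and the genome build, probe set and spot filter are not given in the sources used here. Spot endings match no sample label, so the planned edgeR genotype test was not run, and no SD or p-value is given. Members and lists were chosen with earlier results of these data known.

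Spots of at least 500 counts were clustered with scanpy 1.11.5 and leidenalg 0.10.2 on 2000 variable genes, centred within each set, without the 6 genes, the cycle list and the interneuron markers (30 components, 15 neighbours, resolution 0.8). A cluster was named with at least 3 genes of a marker list among its 30 leading genes, unless another list led its top 10. Areas needed 20 spots in a set, and genes compared between areas a mean of 1 CPM. Intervals are exact 95% (scipy 1.17.1): Poisson for levels, conditional binomial for ratios, Clopper-Pearson for shares. The ratio step was tested on simulated data. Alternatives were resolutions 0.4 and 1.2, no centring, a minimum of 2000 counts, areas by marker score, TMM and RLE scaling (edgeR 4.0.16), no gene filter, and clustering without each set. Named genes were the 6, the 5 most like each, and cycle genes 2-fold apart in every set holding an area. Glul, of the cycle list, was not analysed here. Some genes that meet these rules are not reported here.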

Additional observations from a re-analysis of the deposited data

Results flagged for a closer look

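In 3 of 72 checked levels, 1 of the 4 barcode sets stood apart from the other 3 by Dixon's criterion, which chance alone meets in about 1 of 20 groups of 4. Slc17a8 was at 8.16 CPM in the hypothalamic-marker area of set 2, against 1.99 to 2.23 CPM in the other sets. Of its 65 counts there, 32 lay in the 37 spots of cluster 16, where the level was 25.2 CPM against 2.34 to 2.46 CPM in the other sets. Slc17a7 was at 73.8 CPM in the Etnppl and Lhx8 area of set 3, against 14.8 to 18.4 CPM. Slc17a7 was at 305 CPM in the choroid plexus-marker area of set 4, against 7.20 to 46.0 CPM.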

How the results depend on the processing

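The alternatives were run for 9 of the ratios of an area to other spots, the order of the Gad1 share and the counts between sets, and none of these reversed its direction. With areas drawn by marker score, Slc17a8 was 2-fold higher in the striatal area in 1 of 4 sets. Clustering without each set in turn left Slc17a6 2-fold higher in the thalamic area in 1 to 2 sets (1 without set 1 or without set 4, the sets that hold the area), Gad2 2-fold higher in the hypothalamic area in 1 to 2 sets, Gad1 2-fold lower in the cortical area in 0 to 1 sets, and the order of the Gad1 share in 2 to 3 sets, fewer sets being left to count. Without set 2, Gad1 passed in 0 sets, since set 2 is the 1 set in which it passed. Without set 3, the order of the Gad1 share held in the 2 sets that still had all 3 areas, and Gad2 passed in 1 of those 2. All other counts of sets stayed within 1.5 times their main value, a limit that a change from 4 to 3 sets also meets. The log2 ratio of Slc32a1 to other spots in the cortical area was -1.835 to -1.26, and -1.89 to -0.95 over the alternatives. Slc32a1 was thus short of 2-fold lower there in at least 1 set under an alternative. The log2 ratio of Slc17a7 to other spots in the cortical area was 2.18 to 3.08, and 1.81 to 3.56 over the alternatives. That of Slc17a6 in the thalamic area was 3.66 to 3.77, and 3.47 to 3.78. That of Gad2 in the hypothalamic area was 0.98 to 1.40, and 0.53 to 1.39. No paired analysis was possible because none of the 4 endings could be tied to a mouse. For the same reason the genotype tests with edgeR and DESeq2, and the replicate block and leave-one-out of those tests, were not run. The split by cholinergic counts and the 25% classes by interneuron gene, and the levels outside the thalamic area, were chosen after seeing the data and each run in 1 setting. Depth limits Slc17a8 most, with 561 to 925 counts per set.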
